A study of Canis lupus familiaris with 12 samples.

Results

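CASR, TRPV1 and TRPV4 encode receptors whose activity protons can alter, and the array read them with 5 of its 43603 gene probes: 1 for CASR, 2 for TRPV1 and 2 for TRPV4. They are 3 of the 944 genes that could be named on the array. The probes were chosen because the array's identifier for them is the RefSeq transcript of the dog gene, NM_001081509 for CASR, NM_001003970 for TRPV1 and NM_001127315 for TRPV4. MDCK (Madin Darby Canine Kidney) is an epithelial cell line of dog renal tubule. The cells were grown to confluence, moved to serum-free medium for a day, and then spent 24 h either at pH 7.0, reached with less bicarbonate in the medium, or at pH 7.4. There were 3 biological replicates with separate extraction dates, and each had an RNA of pH 7.0 and an RNA of pH 7.4. Every RNA was read on 2 Agilent arrays with a single dye, giving 6 arrays per group and 12 in all. All RNA came from a single cell line, so the replicates are separate experiments on that line and not separate animals.

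The calcium-sensing receptor CASR is a G-protein-coupled receptor of the cell surface that responds to extracellular calcium. In the kidney it is best known from the thick ascending limb, where it restrains the reabsorption of calcium, and acid extracellular fluid is known to lower its sensitivity to calcium. TRPV1 and TRPV4 are calcium-permeable cation channels of the vanilloid TRP family. TRPV1, the capsaicin receptor, is opened by heat and by protons and is best known from pain-sensing neurons. TRPV4 responds to cell swelling and to mechanical stimuli and is found in epithelia, the distal nephron among them. The arrays measured the RNA of these receptors, not their activity.

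None of the 5 probes was called changed at pH 7.0 by the test used, and neither was any other tested probe. The count over the whole array depended on the settings, as given further below. The estimate was negative for 4 of the 5, CASR, both TRPV4 probes and 1 TRPV1 probe, and positive for the other TRPV1 probe; of all tested probes 48.7% had a negative estimate. The level of a probe is given as the log2 of its processed signal, the background-subtracted Cy3 brightness, less the 75th percentile of gene probes on that array. A change is the pH 7.0 level minus the pH 7.4 level of the same biological replicate. Estimates and standard errors are those of a limma fit over all tested probes (n = 3 pairs of RNAs). Limma called 0 of the 27136 tested probes, or 0% of them, at an adjusted p under 0.05, and 0 of the 5 receptor probes. The smallest adjusted limma p of all tested probes was 0.0502, just above that threshold. At an unadjusted p under 0.05 there were 3324 probes, 12.2% of those tested, and again 0 of the 5. The RNAs of pH 7.0 and pH 7.4 overlapped in level for all 5 probes, while 3.61% of tested probes were lower and 4.48% higher at pH 7.0 without overlap. Each estimate's 95% confidence interval, taken 1 probe at a time, still lay within a doubling and a halving of the signal. In RNA of whole cultures, fewer cells that express a gene and less of its RNA per cell cannot be told apart.

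**Figure D1:**
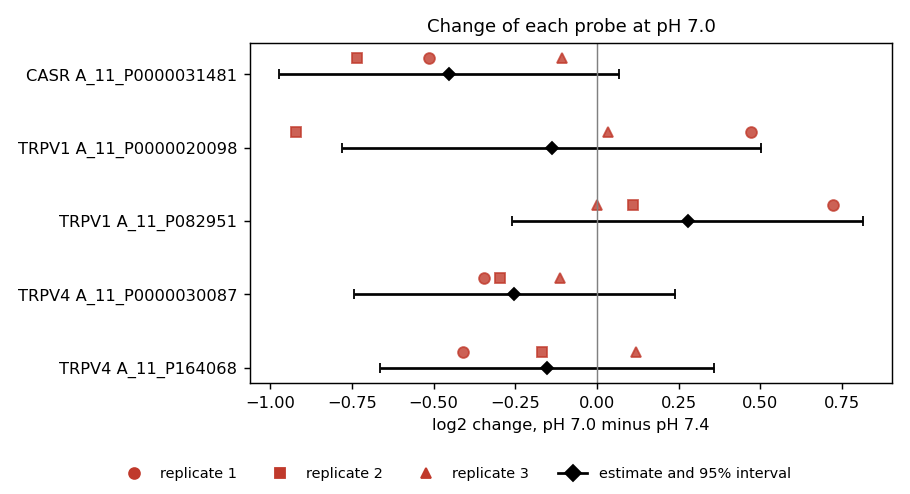
Log2 change at pH 7.0 against pH 7.4 for each probe (horizontal axis); circles, squares and triangles are biological replicates 1, 2 and 3, and the diamond with its bar is the limma estimate with its 95% confidence interval. Every bar crosses 0. The CASR probe and TRPV4 probe A_11_P0000030087 have all 3 replicates left of 0, TRPV1 probe A_11_P0000020098 has replicates on both sides, and the other TRPV1 probe has 1 replicate on the line at 0.

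On single arrays the quality of these readings differed. A probe is called detected here where the scan software put it well above background, and 49.4% to 70.4% of gene probes were detected on an array. The 4 arrays of a biological replicate shared a slide, and the 4 of biological replicate 2 stood apart: their negative-control spots, which match no dog transcript, had median signals of 86 to 106 scanner units, against 28.5 to 33 on the other 8 arrays. The CASR and TRPV4 probes were detected on all 12 arrays. The TRPV1 probes were dim, and on the slide of biological replicate 2 they were detected on 1 of 4 arrays (A_11_P0000020098) and on 0 of 4 (A_11_P082951). None of the 5 probes was saturated or marked as an outlier on any array.

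CASR is read by the probe A_11_P0000031481. Its processed signal was 60.1 on the lowest, 124 on the median and 240.5 on the highest array at pH 7.0, against 112, 187 and 219 at pH 7.4. Averaged over the 2 arrays of an RNA, its level was -2.63, -2.77 and -1.61 at pH 7.0 in biological replicates 1 to 3, against -2.12, -2.03 and -1.50 at pH 7.4. The pH 7.0 RNA was the lower one in each pair, but the groups overlapped, because both RNAs of biological replicate 3 were above all the others. Of the 6 arrays at pH 7.0, 5 were below both pH 7.4 arrays of their own biological replicate. For the TRPV1 probes this number was 1 (A_11_P0000020098) and 0 (A_11_P082951). The 2 arrays of an RNA are not independent, and the share of all tested probes with such numbers was not counted. The group means were -2.34 ± 0.63 at pH 7.0 and -1.88 ± 0.33 at pH 7.4 (SD, n = 3 RNAs each).

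Within the pairs, the CASR change was -0.52, -0.73 and -0.11. Its size varied, and the third pair was close to 0. The limma estimate was -0.45 ± 0.23 (SE), a signal 0.731 times that at pH 7.4, with a 95% confidence interval of 0.509 to 1.05 times, an unadjusted p of 0.0816 and an adjusted p of 0.471. Of all tested probes, 15.7% were lower at pH 7.0 in all 3 biological replicates, as CASR was, and 10.1% had a more negative estimate. The 2 arrays of an RNA differed by 0.028 to 0.69 for this probe. Single arrays of 1 RNA could thus lie farther apart than the size of the estimate, though not of the -0.73 of biological replicate 2. Without biological replicate 3 the estimate was -0.62, and without biological replicate 2 it was -0.31.

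TRPV4 had bright signals on both of its probes. On A_11_P0000030087 the processed signal was 853 on the lowest, 1510 (1509.6) on the median and 2210 (2209.5) on the highest array at pH 7.0, against 980.1, 1827 and 3145 at pH 7.4. The levels of the RNAs were 1.39, 0.97 and 1.29 at pH 7.0 in biological replicates 1 to 3, against 1.74, 1.266 and 1.41 at pH 7.4. The pH 7.0 RNA was again the lower one in each pair and the groups overlapped, with the lowest 2 levels of all in biological replicate 2. As for CASR, and with the same limits on such a count, 5 of the 6 pH 7.0 arrays lay below both pH 7.4 arrays of their replicate. Means were 1.22 ± 0.22 at pH 7.0 and 1.47 ± 0.24 at pH 7.4 (SD, n = 3 RNAs each).

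The 3 changes of this TRPV4 probe were -0.35, -0.30 and -0.11, and their SD of 0.12 was smaller than that of most probes (median over tested probes 0.37). Its duplicate arrays also lay close together, with an SD of 0.083 between them against a median of 0.30. Limma moderates each probe's variance towards that of all probes, so its standard error was wider than these changes alone would give: the estimate was -0.25 ± 0.22 (adjusted p = 0.700), with an interval of 0.597 to 1.18 times the signal at pH 7.4. The estimate ranged from -0.32 to -0.096 over the alternatives tried.

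The other TRPV4 probe, A_11_P164068, gave levels of 0.51, 0.36 and 1.08 at pH 7.0, against 0.92, 0.53 and 0.96 at pH 7.4 in biological replicates 1 to 3. Here the pH 7.0 RNA was lower in replicates 1 and 2 and higher in replicate 3, with changes of -0.41, -0.17 and 0.12. Its processed signal was 553 on the lowest, 959 on the median and 1799.5 on the highest array at pH 7.0, against 628, 1154 and 1971 at pH 7.4. Of the 6 pH 7.0 arrays, 4 lay below both pH 7.4 arrays of their replicate, a count with the same limits as for CASR. Means of the RNAs were 0.65 ± 0.38 at pH 7.0 and 0.80 ± 0.24 at pH 7.4 (SD, n = 3 each), and limma put the change at -0.15 ± 0.23 (adjusted p = 0.844; 0.631 to 1.28 times). Without biological replicate 1 little of it remained, at -0.025. Both TRPV4 probes thus had a negative estimate, and they differed in the sign of biological replicate 3. The mean of the 2 probes gave -0.20 ± 0.22 (limma adjusted p = 0.772).

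**Figure D2:**
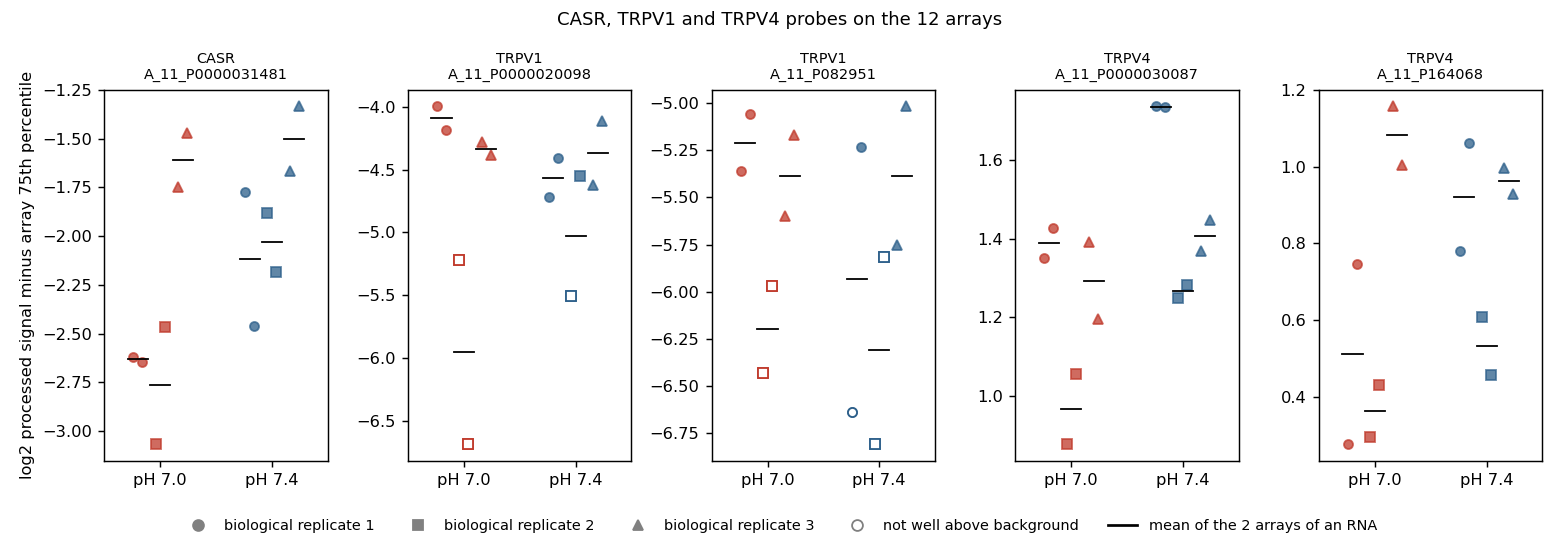
Level of the 5 probes on each array (vertical axis, log2 processed signal less the 75th percentile of the array; the scale differs between panels), with pH 7.0 in red left of pH 7.4 in blue. Symbols give the biological replicate, open symbols mark arrays that did not detect the probe, and black lines are the means of the 2 arrays of an RNA. The groups overlap in every panel, and the open symbols lie in the TRPV1 panels, all but 1 of them in biological replicate 2.

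TRPV1 was near the lower end of what the arrays could read. Its probe A_11_P0000020098 was detected on 4 of 6 pH 7.0 arrays and 5 of 6 pH 7.4 arrays. Its processed signal was 3.99 on the lowest, 33.4 on the median and 45.2 on the highest array at pH 7.0, against 9.06, 29.0 and 44.4 at pH 7.4. The RNA levels were -4.09, -5.95 and -4.33 at pH 7.0 in biological replicates 1 to 3, against -4.56, -5.03 and -4.36 at pH 7.4. The pH 7.0 RNA was higher in replicate 1, lower in replicate 2 and nearly level in replicate 3, with changes of 0.47, -0.92 and 0.034.

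For this TRPV1 probe the means were -4.79 ± 1.01 at pH 7.0 and -4.65 ± 0.34 at pH 7.4 (SD, n = 3 RNAs each). The limma estimate of -0.14 ± 0.29 (adjusted p = 0.895; 0.582 to 1.42 times) took its sign from biological replicate 2, in which 3 of the 4 arrays did not detect the probe. It was 0.25 without that replicate, 0.11 without pH 7.0 array 4 and 0.021 without pH 7.4 array 4, both of them arrays of that replicate. Without array 3 of the same RNAs it was -0.38 (pH 7.0) and -0.30 (pH 7.4). The 2 arrays of the pH 7.0 RNA of replicate 2 differed by 1.47 from each other, which is more than any of the 3 changes.

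The other TRPV1 probe, A_11_P082951, was detected on 4 of 6 pH 7.0 arrays and 3 of 6 pH 7.4 arrays. Its processed signal was 5.83 on the lowest, 15.6 on the median and 24.7 on the highest array at pH 7.0, against 3.69, 13.2 and 25.1 at pH 7.4. Its levels were -5.21, -6.20 and -5.38 at pH 7.0, against -5.93, -6.31 and -5.38 at pH 7.4 in biological replicates 1 to 3. The pH 7.0 RNA was higher in replicate 1, and the RNAs were close in the other 2 pairs, with changes of 0.72, 0.11 and -7.9e-05. Means were -5.60 ± 0.53 at pH 7.0 and -5.88 ± 0.47 at pH 7.4 (SD, n = 3 RNAs each), and the limma estimate was 0.28 ± 0.24 (adjusted p = 0.699; 0.835 to 1.76 times). Much of the change in replicate 1 lay in 1 array: pH 7.4 array 1 had a processed signal of 7.38 and pH 7.4 array 2, of the same RNA, one of 25.1. Without pH 7.4 array 1 the estimate was 0.044, and without pH 7.4 array 2 it was 0.51. Averaged over the 2 probes, TRPV1 stood at 0.069 ± 0.25 (limma adjusted p = 0.943).

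**Figure D3:**
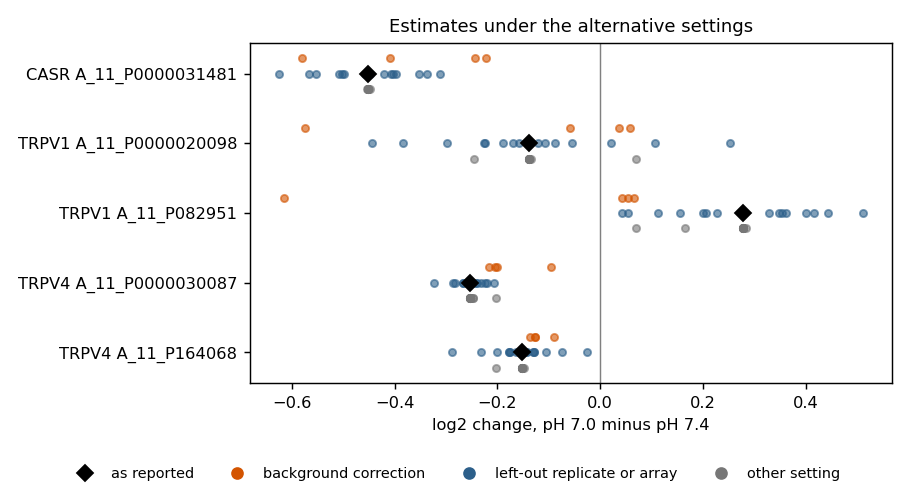
Log2 change at pH 7.0 against pH 7.4 (horizontal axis) of each probe as reported (black diamond) and under the alternatives tried: other background corrections (orange), a replicate or array left out (blue) and other settings (grey). CASR stays between -0.62 and -0.22 and both TRPV4 probes stay left of 0, while TRPV1 points lie on both sides, from -0.44 to 0.25 with a replicate or array left out for A_11_P0000020098.

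**Figure D4:**
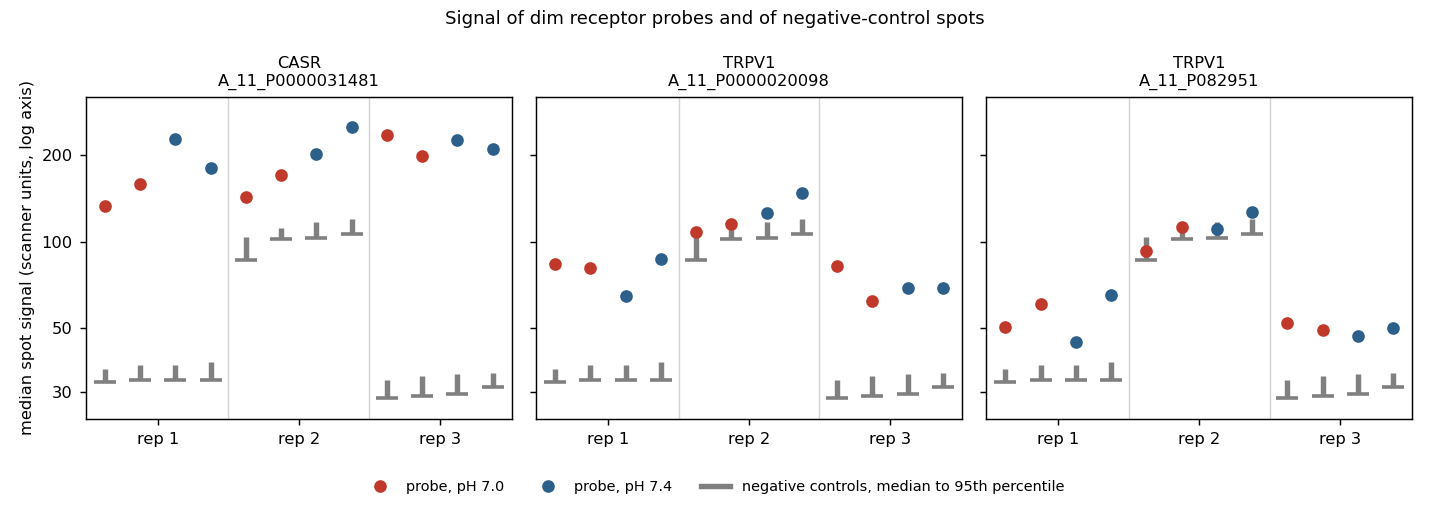
Median spot signal in scanner units on a log axis for the CASR probe and the 2 TRPV1 probes on the 12 arrays, ordered by biological replicate with pH 7.0 (red) left of pH 7.4 (blue). Grey marks run from the median to the 95th percentile of the array's 153 negative-control spots, with medians of 86 to 106 scanner units in replicate 2 and 28.5 to 33 in the others. The CASR signal stands clear of the controls on all arrays, and the TRPV1 signals lie close to them in replicate 2.

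Set against the negative controls of the same array, the dimmest probe read above their median on every array. The unsubtracted signal of this probe, TRPV1 probe A_11_P082951, was above the controls' 95th percentile on 10 of 12 arrays. The share of all gene probes above that percentile was not counted, and whether the excess comes from TRPV1 RNA was not tested. The signal of A_11_P082951 exceeded the controls' median by 7 to 21 scanner units on the arrays of biological replicate 2 and by 11.5 to 32 on the others. The brighter TRPV1 probe was above that percentile on all 12 arrays, by 13.5 to 42 units over the median in replicate 2 and by 31.5 to 54 elsewhere. CASR exceeded the median by 57 to 145 units in replicate 2 and by 101 to 206.5 elsewhere. The part of the raised controls of replicate 2 in the TRPV1 readings was not tested; without that replicate the 2 TRPV1 estimates were 0.25 and 0.36.

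For all 5 probes the range of the 3 biological replicate means was wider than the difference of the 2 group means. A range of 3 values tends to be wider than 1 difference, and the share of tested probes with this order was not counted. Averaged over its pH 7.0 and pH 7.4 RNA, CASR ranged over 0.84 between replicates, with replicate 3 highest. The TRPV1 probes ranged over 1.16 and 0.87, with replicate 2 lowest in both. The TRPV4 probes ranged over 0.45 (A_11_P0000030087) and 0.57 (A_11_P164068), also with replicate 2 lowest, while the highest was replicate 1 on the first and replicate 3 on the second. Replicate, slide and scan date were the same split of the arrays, so their shares in these ranges cannot be told apart. The likeness of profiles was measured as the root mean square difference of the 6 RNA levels, each probe's own mean removed. Of the 10 pairs of receptor probes the TRPV4 probes were most alike (0.23), followed by CASR with the TRPV4 probe A_11_P164068 (0.28), and the TRPV1 probes differed by 0.36.

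By the same measure the named genes nearest to each probe were sought among the tested probes that carry a gene symbol, 922 of them for CASR. The nearest to CASR were FLCN, the tumour suppressor folliculin (0.11), and RHBG, an ammonia transporter of the collecting duct (0.12), against a median of 0.59 over all 922. RHBG itself had a change of -0.33. For TRPV4 probe A_11_P0000030087 they were the defensin gene DEFB124 (0.088), SELENOF (0.11) and MAVS (0.12), and for A_11_P164068 they were SEPHS2 (0.071), ACAN (0.081) and NPC1L1 (0.092). The nearest to the TRPV1 probes were less near: PDGFRB (0.23), CYP21A2 (0.27) and RECK (0.28) for A_11_P0000020098, and TXNRD3 (0.18), STOM (0.18) and FUNDC2 (0.20) for A_11_P082951. A small difference over 6 RNAs that share slides is a description, and among many genes some are near by selection.

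Few genes of the surrounding pathways could be named on this array, since a symbol was available for 1484 of its probes. Of 174 listed genes 24 had a named probe, and 16 were tested by their brightest one. Of these 16, 10 had a positive and 6 a negative estimate, with a median of 0.088, against 0.087 over the 924 tested probes with a symbol, from which the lists draw, and 0.012 over all tested probes. None passed an adjusted p of 0.05, and 3 had an unadjusted limma p under 0.05, beside 12.2% of all tested probes. The proton-sensing G-protein-coupled receptors of the list (GPR4, GPR65, GPR132 and others) had no named probe and were not analysed here. The acid-sensing channel list had 1 gene, the glutamate receptor subunit GRIN1, which was too dim for the test. TRPM8, the cold-activated channel and the only other TRP channel named, stood at -0.058 ± 0.23 (limma adjusted p = 0.949).

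Of the 5 tested partners of CASR, 3 had a positive and 2 a negative estimate, and none passed. The listed G-protein subunits with a tested probe had estimates near 0. GNAI2, the inhibitory alpha subunit, was at 0.10 ± 0.23, with changes of -0.27, 0.39 and 0.19. GNB1, a beta subunit, was at 0.10 ± 0.22, and GNAS, the stimulatory alpha subunit, at 0.076 ± 0.22. The alpha subunits GNAQ and GNA11, also on the list, had no named probe. The brightest GNAS probe was saturated on 1 array at pH 7.0 and 3 at pH 7.4, and 2 of the 5 GNAS probes had negative estimates. PTH, the parathyroid hormone whose secretion CASR restrains, stood at -0.14 ± 0.22 and was detected on 3 of 6 pH 7.0 arrays and 3 of 6 pH 7.4 arrays.

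In the list of tubular calcium transport, 2 genes were tested. ATP2A2, the calcium pump of the endoplasmic reticulum, stood at -0.27 ± 0.23 (limma adjusted p = 0.683), and all 5 of its probes were negative, between -0.39 and -0.049. CLDN2, a claudin of cation-permeable tight junctions, was the other, at 1.15 ± 0.29 (limma adjusted p = 0.174). Its changes were 0.54, 1.95 and 0.97 in biological replicates 1 to 3, the largest on the slide with the raised negative controls. The level of CLDN2 averaged -3.79 at pH 7.0 and -4.94 at pH 7.4, and it was detected on 5 of 6 pH 7.0 arrays and 3 of 6 pH 7.4 arrays.

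The list of TRPV1 and TRPV4 partners had 8 tested genes, 6 with positive and 2 with negative estimates, of which none passed. Bradykinin receptors, known to sensitise TRPV1 in sensory neurons, were on the positive side. BDKRB2, the constitutive one, had changes of 0.34, 0.74 and 0.44 (0.51 ± 0.22, limma adjusted p = 0.400), and BDKRB1, the inducible one, of 0.54, 0.079 and 0.66 (0.43 ± 0.23). The prostaglandin E2 receptors were on the negative side: PTGER2 had changes of -0.88, -1.09 and -0.73 (-0.90 ± 0.22, limma adjusted p = 0.172), and PTGER4 stood at -0.31 ± 0.22. PRKACA, the catalytic subunit of protein kinase A, was at 0.39 ± 0.25. CAV1, the caveolar coat protein, was at 0.25 ± 0.23, with 2 saturated arrays at pH 7.0 and 1 at pH 7.4.

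**Figure D5:**
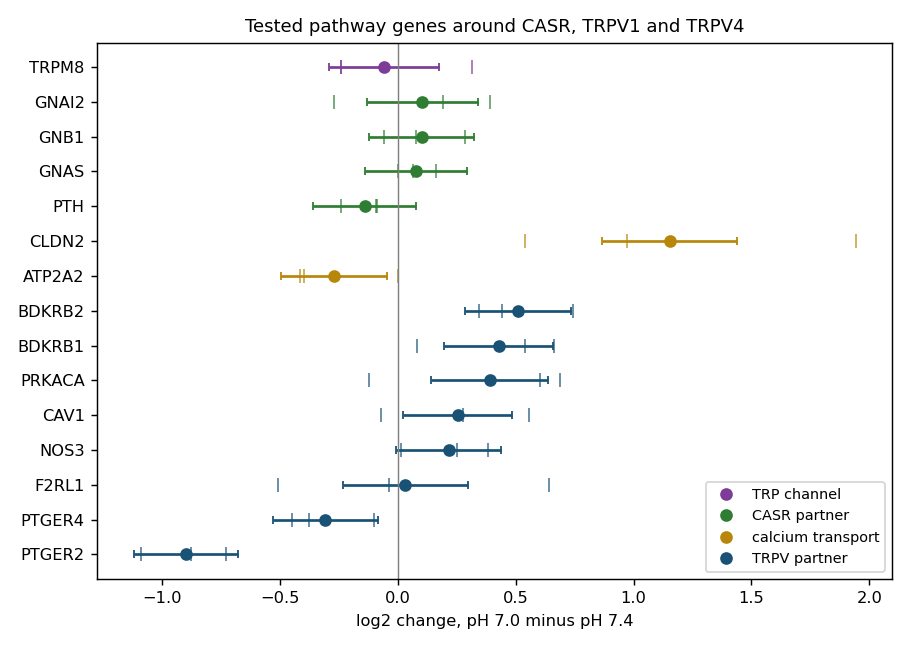
Log2 change at pH 7.0 against pH 7.4 (horizontal axis) of 15 of the 16 tested pathway genes, each by its brightest probe: points with bars are the limma estimate and its standard error, small vertical ticks the 3 biological replicates, and colours the list. PTGER2 lies farthest to the left and CLDN2 farthest to the right, and neither passed an adjusted p of 0.05.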

How the data were processed

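Each scan gives an intensity per spot in Cy3, per the file headers: processed signal, median signal and local background were read. The scans were read with Agilent Feature Extraction 10.7.3.1, per the submitters' processing notes. The deposited value table holds log2 values of unstated scale and centring. By comparison it equals the scaled log2 processed signal centred on the median of each probe (slope 1.00 on each array); a direction does not apply. The medians of its columns for arrays 1 to 6 at pH 7.0 were -0.11, -0.15, 0.23, 0.21, -0.23 and 0.017, and at pH 7.4 they were 0.020, -0.21, 0.21, 0.079, -0.086 and 0.066.

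Control spots were left out, outlier spots set to missing, spots of a probe averaged on the log2 scale, and the 75th percentile over probes subtracted. Arrays titled 1 and 2, 3 and 4, and 5 and 6 were taken as the duplicates of biological replicates 1 to 3, each on its own slide, and the 2 arrays of an RNA were averaged. Probes well above background on at least 6 of 12 arrays were tested with limma 3.58.1 in R 4.3.3, biological replicate as a block, in two-sided tests whose p-values were adjusted by Benjamini-Hochberg over every tested probe. The series design puts 1 RNA of each pH in a biological replicate, and paired RNAs had correlated deviations from their group means (0.39, 0.64 and 0.81). Between RNAs of different replicates the correlations ran from -0.63 to 0.26, and deviations from a mean of 3 lean to negative values there. Paired RNAs also shared a slide, so these values cannot tell the pairing from the slide. These p-values rest on how the pH change varied between 3 pairs of RNAs of 1 cell line, moderated towards all tested probes. The small number of RNAs and arrays limits the precision. The fit was tested on simulated data.

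Symbols came from RefSeq accessions without version, matched to a table of the dog assembly UU_Cfam_GSD_1.0, and 1484 probes matched. The members and lists were chosen with earlier results of these data known. The text names every receptor probe, up to 6 tested genes per list by lowest unadjusted p, and the 3 named probes nearest each receptor probe; a few genes these rules pick are not reported here. Figures used python 3.11.15 and matplotlib 3.10.9. Probe sequences and genome positions were not used here.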

Additional observations from a re-analysis of the deposited data

How the results depend on the processing

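CASR and both TRPV4 probes kept a negative estimate under the alternatives tried, CASR between -0.62 and -0.22, TRPV4 between -0.32 and -0.096 (A_11_P0000030087) and between -0.29 and -0.025 (A_11_P164068). The size for CASR depended on the background treatment. It was -0.58 with normexp on local backgrounds and -0.22 with outlier backgrounds set to the array median. On the median signal it was -0.24 with nothing subtracted and -0.41 less the negative-control median. None of the 5 probes passed the threshold under an alternative. Settings of the prior, the block, the filter or the threshold leave an estimate as it is. Of the 120 estimates under the other settings for single probes, 6 changed sign, all of TRPV1. Not all of the 120 were free to do so. CASR and TRPV4 probe A_11_P0000030087 were lower in all 3 pairs, so leaving out a biological replicate could not change their sign. The deposited value table and the keeping of outlier spots hardly moved any of the 5 estimates. TRPV1 probe A_11_P0000020098 was 0.037 with normexp after outlier backgrounds were set to the array median, 0.058 on the median signal with no background subtracted, and between -0.44 and 0.25 with a biological replicate or array left out. Probe A_11_P082951 was -0.61 with normexp on local backgrounds. The mean of both TRPV1 probes, which have opposite signs, was 0.069. The cause of these sign changes was not tested. The requirement of all 12 arrays above background leaves the TRPV1 probes without a value. Without the replicate block the CASR estimate was -0.45 (SE 0.39), and 0 probes were called, as with it.

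The count of called probes over the whole array was less stable. It was 690 with 12 arrays and the RNA as a random block, 14 with normexp on local backgrounds, 24 with array median scaling, 134 with probes above background on all 12 arrays, 135 with an intensity trend in the prior, 18 with a robust prior, 71 at an adjusted p under 0.10 and 20 with the percentile taken over spots. It ran between 0 and 647 with a replicate or array left out: 277 without biological replicate 1, 647 without biological replicate 2, 15 with pH 7.0 array 6 left out and 4 with pH 7.4 array 1 left out. The percentile over spots and the 2 settings on the unsubtracted median signal (with and without the negative-control median taken off) were chosen after seeing the data. Low signal over background limits the TRPV1 readings.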

Other observations

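Several listed partners of the sensory channels had probes too dim for the test, and they are named here after their values were seen. The neurokinin receptors of substance P and related peptides were among them. TACR1 was detected by its brightest probe on 1 of 6 pH 7.0 arrays and 4 of 6 pH 7.4 arrays, and by its other probe on 1 of 12. The changes of the brightest TACR1 probe were -1.09, 0.41 and -0.42, and the share of probes with so unequal a detection was not counted. TACR2 and TACR3 were each detected on 0 of 6 pH 7.0 arrays and 1 of 6 pH 7.4 arrays. The peptide gene CALCB was detected on 0 of 6 pH 7.0 arrays and 1 of 6 pH 7.4 arrays, and KCNMA1, a calcium-activated potassium channel, on 0 of 12 by its brightest probe. PTH1R, the receptor of parathyroid hormone, was detected on 2 of 6 pH 7.0 arrays and 0 of 6 pH 7.4 arrays, and PLN, the inhibitor of the calcium pump ATP2A2, on 0 of 12.

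Markers of the cells that TRPV1 and CASR are best known from were dim or not detected. PTH, the only parathyroid marker with a named probe, was detected on 3 of 6 arrays in each group. SCN10A, a sodium channel of sensory neurons and the only such marker with a named probe, was detected on 0 of 12 arrays. Of 7 tubule epithelium markers with a named probe, 4 were detected on all 12 arrays (OCLN, TJP1, CGN and ATP1B1). CLDN2 was detected on 5 of 6 pH 7.0 arrays and 3 of 6 pH 7.4 arrays, AQP1 on 4 of 6 pH 7.0 arrays and 1 of 6 pH 7.4 arrays, and UMOD, which marks the thick ascending limb, on 0 of 12. Of 4 fibroblast markers COL1A1 and COL1A2 were detected on all 12 arrays, PDGFRB on 5 of 6 in each group, and DCN on 0 of 6 pH 7.0 arrays and 1 of 6 pH 7.4 arrays. The leukocyte markers CD4 and CD8A were detected on 3 and 4 of 6 pH 7.0 arrays and on 2 and 3 of 6 pH 7.4 arrays. Of the endothelial markers VWF was detected on all 12 arrays, and KDR on 1 of 6 pH 7.0 arrays and 2 of 6 pH 7.4 arrays. UMOD, AQP1, SCN10A, DCN, CD4 and KDR were too dim for the test, and none of the other markers named here passed an adjusted limma p of 0.05.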
